A study of Mus musculus with 16 samples.

Results

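Chemokines are small secreted proteins that draw leukocytes along a gradient by binding G protein-coupled receptors on the migrating cell. Atypical receptors bind the same ligands without the usual G protein signal and take them up or carry them, and so shape the gradient. In white adipose tissue, chemokines made by stromal, adipocyte and immune cells are known for recruiting monocytes and other leukocytes in obesity. The genes described here are the protein-coding rows whose symbol is a chemokine stem (Ccl, Cxcl, Cx3cl, Xcl) or a receptor stem (Ccr, Cxcr, Cx3cr, Xcr, Ackr) followed by a number. This rule found 66 of 54532 rows of the count table, 44 for ligands and 22 for receptors. They carry 60 symbols, of which 38 are ligands, 18 conventional receptors and 4 atypical receptors. Cxcl11 falls outside the rule because the table does not class it as protein coding.

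RNA came from gonadal white fat of female C57BL/6 mice. Stress mice (MS) were taken from the dam daily on postnatal days 2 to 16 and weaned on day 17. Control mice (C) were left undisturbed and weaned on day 21. Mice then ate a high-fat (HF) or a low-fat (LF) diet; age at harvest is not given in the sources used here. Mature adipocytes (A) and preadipocytes (P) were obtained from collagenase-digested tissue by centrifugation, filtration and magnetic sorting, with antibodies not given in the sources used here. The 16 bulk libraries comprised 3 MS_HF_A, 3 C_HF_A, 4 MS_HF_P, 4 C_HF_P, 1 MS_LF_P and 1 C_LF_P. Whether the libraries of 1 group stem from different animals is not stated, so a p-value reflects the spread among the libraries at hand, possibly technical spread alone. Libraries 1 and 3 of the control high-fat preadipocytes stood far closer than any other pair, with a biological coefficient of variation of 0.0427, against 0.205 to 0.567 in the other 17 pairs within a group. They were counted as 1 sample, which leaves 6 adipocyte and 7 preadipocyte samples on the high-fat diet.

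Library totals ran from 14182130 to 23368821 counts, and 3 counts, the floor used for a gene at 0, came to 0.128 to 0.212 CPM (counts scaled to library size). Mature adipocyte libraries held 15344 to 20964 detected genes and preadipocyte libraries 23004 to 26053. The fewest were in control adipocyte libraries 3 and 1, at 15344 and 18091. The ratio of genes with 1 to 5 counts to genes with 6 to 15 counts was 0.637 and 1.15 there. In the other adipocyte libraries it was 1.55 to 2.21, so genes at low counts were lost unevenly. All 8 mature adipocyte markers (such as Adipoq and Plin1) were called higher in the adipocyte libraries, and all 8 progenitor markers (such as Pdgfra and Dpp4) were called lower. Macrophage markers were present in both fractions: their summed level was 1107 to 3377 FPKM (fragments scaled to gene length and library size, as deposited) in adipocyte libraries and 710.7 to 4208 FPKM in high-fat preadipocyte libraries, and 0 of 12 differed by the test. T and NK cell markers summed to 1.37 to 4.24 FPKM in adipocyte libraries and 5.23 to 34.7 FPKM in high-fat preadipocyte libraries, and 8 of 10 were called lower in adipocytes, where up to 6 of the 10 were at 0 in a library. Only 2 of the 10 held enough counts to be tested in adipocyte libraries alone. B cell markers (7 of 7) and mesothelial markers (8 of 8) were also called lower in adipocytes. Of 10 endothelial markers, 8 were called higher and 1 lower. In bulk RNA, fewer cells of a type and less RNA per cell cannot be told apart.

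Of the 66 rows, 39 had counts in all 16 libraries, 5 had between 1 and 10 counts over all libraries together, and 9 had none. The 9 silent rows were Ccl27b, 1 copy of Ccl19, 1 copy of Ccl27a, and both copies each of Ccl21a, Ccl21b and Ccl21c. Ccl19 and the Ccl21 genes encode the lymph node ligands of CCR7. Copies of 5 symbols share 11 rows and 7 rows lie on unplaced contigs, so reads of these near-identical copies may have been split or dropped, and their levels are uncertain. The only Ccl19 row with a signal was listed at 0.0582 FPKM in stress high-fat preadipocyte library 3 and at 0 in the other 15 libraries.

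Many members lie in gene clusters. The Cxcl5, Cxcl3, Cxcl15, Cxcl1 and Cxcl2 genes, whose products attract neutrophils, lie together on chromosome 5 at 90759360 to 90905938 (GRCm38). Cxcl1 and Cxcl2 were among the highest-level members and Cxcl2 had the smallest p of the family for diet. Their promoters, with that of Cxcl3, are therefore shown, from 180 to 31 bases before the RefSeq start (RefSeq, GRCm38.p6, all on the + strand). Capitals mark the longest stretch that all 3 share, GGGAATTTCCC, which has the form of an NF-kappaB binding sequence.
Cxcl1, chr5:90891065-90891214: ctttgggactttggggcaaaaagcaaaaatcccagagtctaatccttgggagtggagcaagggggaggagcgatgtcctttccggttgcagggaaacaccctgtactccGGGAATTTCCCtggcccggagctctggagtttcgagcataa
Cxcl2, chr5:90903719-90903868: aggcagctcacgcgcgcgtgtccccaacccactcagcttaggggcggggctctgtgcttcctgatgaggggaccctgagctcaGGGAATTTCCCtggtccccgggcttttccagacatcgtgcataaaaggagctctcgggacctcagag
Cxcl3, chr5:90785921-90786070: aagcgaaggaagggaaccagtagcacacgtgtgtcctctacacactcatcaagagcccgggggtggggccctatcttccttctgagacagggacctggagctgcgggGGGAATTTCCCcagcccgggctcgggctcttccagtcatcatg
The stretch begins at base -71 of Cxcl1, -97 of Cxcl2 and -73 of Cxcl3, counted from the RefSeq start. It was then searched on both strands in windows of 300 bases, 250 before and 50 after each start. Of the 52 windows found for 45 of the 60 symbols, these 3 held it, and 14 of 32851 windows of all genes did (0.0426%); since it was taken from these 3 genes, the count over members is a description only. The table gives Cxcl2 a start at 90903871, a little upstream of the RefSeq start.

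Members took 0.168 to 0.286% of all counts in adipocyte libraries and 0.415 to 0.802% in preadipocyte libraries. FPKM values are per length, so genes can be set in order. In high-fat mature adipocytes the order was Ccl6 (196 ± 69.5 FPKM), Cxcl1 (145.3 ± 69.7), Ccl9 (131 ± 68.3), Ccl7 (131 ± 79.9), Cxcl2 (115 ± 38.9), Ccl2 (108 ± 53.9), Ccl8 (49.0 ± 26.5), Ccl11 (39.6 ± 14.2), Cxcl10 (39.6 ± 35.7) and Ccl3 (34.0 ± 10.9; SD, n = 6). In high-fat preadipocytes it was Cxcl1 (1013 ± 388 FPKM), Ccl2 (591 ± 273), Ccl7 (460 ± 166), Ccl11 (421 ± 132), Cxcl2 (283 ± 67.1), Ccl6 (181 ± 144), Ackr3 (141 ± 52.2), Ccl9 (90.1 ± 81.2), Ccl8 (87.1 ± 48.5) and Ccl3 (47.7 ± 26.6; SD, n = 7). In both lists the range of each gene over the samples overlapped that of its neighbour in the order. This overlap does not compare genes within a library, and Cxcl1 stood above Ccl2 in each high-fat preadipocyte library. Cxcl1 alone held 27.5% of the summed member FPKM in preadipocytes, and the first 5 genes 75.05%; in adipocytes Ccl6 held 16.6%. A single receptor, the atypical Ackr3, stood among the 10 highest members in preadipocytes, and none did in adipocytes.

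**Figure D1:**
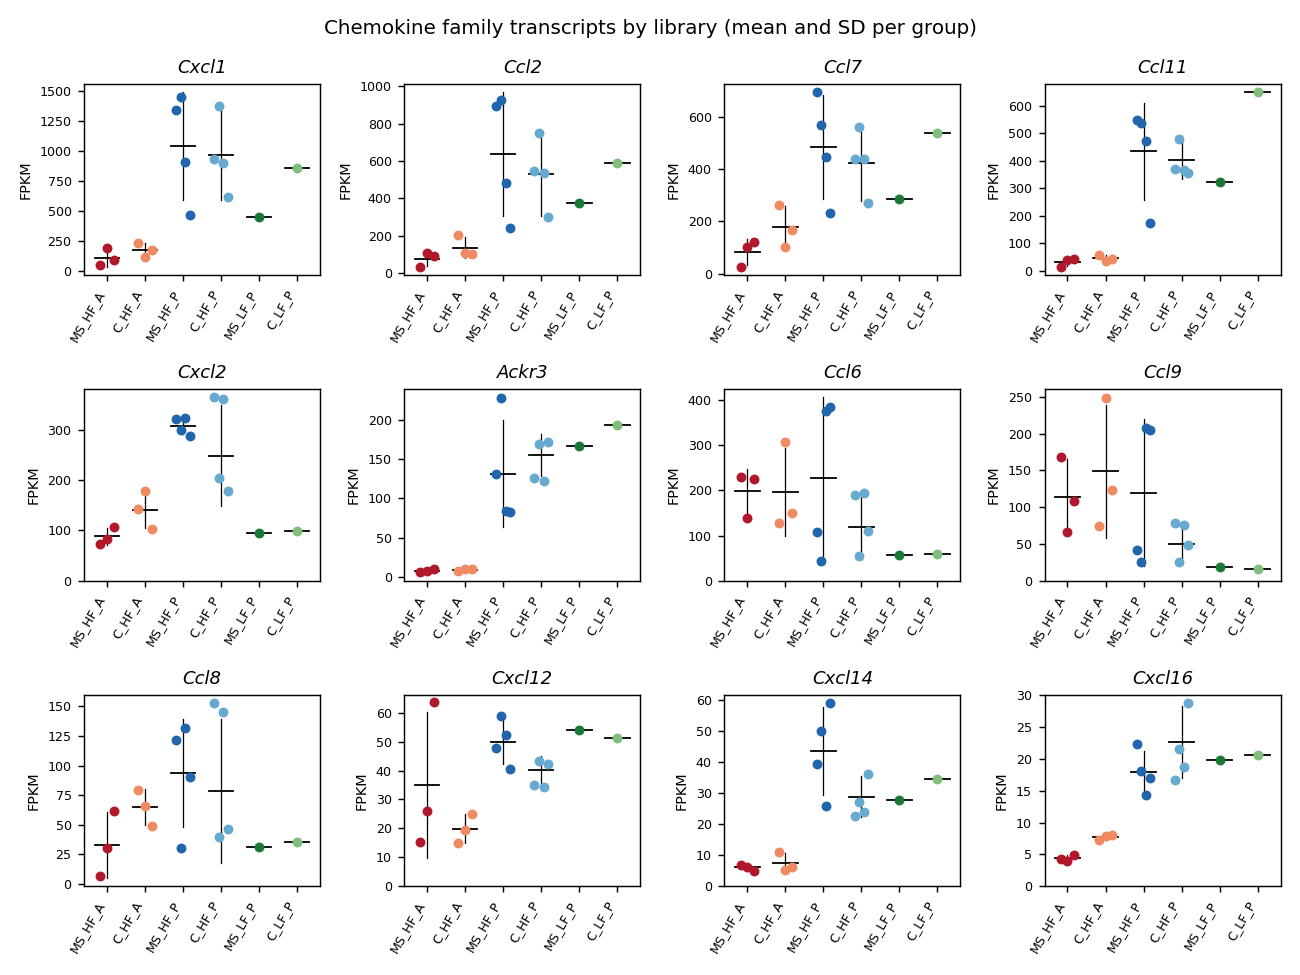
FPKM (linear axis) of 12 members in each of the 16 libraries, by group (MS, stress; C, control; HF, high-fat; LF, low-fat; A, mature adipocytes; P, preadipocytes); points are libraries, horizontal lines means and vertical lines SD, with control high-fat preadipocyte libraries 1 and 3 averaged as 1 sample. Cxcl1, Ccl2, Ccl11, Ackr3, Cxcl14 and Cxcl16 are lower in every high-fat adipocyte library than in every high-fat preadipocyte library, while Ccl6, Ccl9 and Ccl8 overlap.

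The comparison of fractions asked which members differed between mature adipocytes and preadipocytes on the high-fat diet. With edgeR's quasi-likelihood test and Benjamini-Hochberg adjustment over all genes, used for every adjusted p below unless another tool is named, 23 of the 51 members tested were lower in adipocytes and 0 were higher; 15 rows were below the count filter. Over all 17948 genes tested, 59.8% were called, 32.9% lower and 26.9% higher. The median log2 fold change of the members tested was -1.30, against -0.22 over all genes (-0.32 with DESeq2-type size factors). The 51 members include 11 that passed the filter only through preadipocyte libraries, which may lower their median. Of the 51, 40 passed the filter in adipocyte libraries alone and 16 of those were lower, against 25.7% of the 14485 genes that did; 11 passed only through the preadipocyte libraries, where they are high, and 7 of these were lower (Ccl26, Xcl1, Ccr4, Ccr6, Ccr8, Ccr9 and Cxcr6), which the filter favours. For 12 of 51 members the samples of the fractions did not overlap and adipocytes were lower (21.9% of all genes), and for 0 of 51 they did not overlap and adipocytes were higher (16.1% of all genes).

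Among the neutrophil-attracting CXC ligands, 3 of 4 tested were lower in adipocytes, against 32.9% of all genes tested. Cxcl1, a ligand of CXCR2 (ENSMUSG00000029380, chromosome 5 at 90891241 to 90893115), had a lowest, median and highest level of 49.0, 147 and 237 FPKM in adipocyte samples, against 468, 920 and 1451 FPKM in preadipocyte samples. The fractions did not overlap, and Cxcl1 was 6.91-fold lower in adipocytes (log2 fold change -2.79 ± 0.37 SE, adjusted p = 1.49e-05). Cxcl2, another CXCR2 ligand, ran from 74.0 through a median of 105 to 178 FPKM in adipocyte samples, against 179, 300 and 363 FPKM in preadipocyte samples. Here the fractions all but touched, and the fall was 2.37-fold (-1.24 ± 0.25, adjusted p = 0.00053). In control libraries alone, its difference was -0.77 (adjusted p = 0.147). Cxcl5 fell furthest of the CXCR2 ligands, 14.1-fold (adjusted p = 0.000842), at 0.624 ± 0.510 FPKM in adipocytes and 8.65 ± 5.30 FPKM in preadipocytes (SD, n = 6 and n = 7). Cxcl3 was at 0.609 FPKM in adipocytes and 1.80 FPKM in preadipocytes and did not pass (adjusted p = 0.0631). Cxcl15 had no counts in adipocytes and 40 over the preadipocyte libraries, and was below the filter.

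The monocyte-attracting CC ligands were divided, with 2 of 4 lower, against 32.9% of all genes tested. Ccl2, the main ligand of CCR2, had 36.2, 104 and 203 FPKM as lowest, median and highest value in adipocyte samples, against 242, 543 and 926 FPKM in preadipocyte samples. No adipocyte sample reached the lowest preadipocyte sample, and the fall was 5.43-fold (-2.44 ± 0.40, adjusted p = 0.0001). Ccl7, which shares CCR2, stood at 27.5, 112 and 265 FPKM in adipocyte samples, against 231, 445 and 694 FPKM in preadipocyte samples. Its highest adipocyte sample, control library 1, overlapped the lowest preadipocyte sample; the fall was 3.63-fold (-1.86 ± 0.40, adjusted p = 0.00104). Ccl8, a CCR8 ligand in mice, did not pass (-0.83 ± 0.50, adjusted p = 0.159), nor did Ccl12, a further CCR2 ligand, at 10.95 ± 7.96 FPKM in adipocytes and 10.96 ± 8.81 FPKM in preadipocytes.

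Ccl11, the eotaxin that attracts eosinophils through CCR3, was separated most clearly among the abundant ligands. It ran from 15.3 through a median of 41.8 to 58.9 FPKM in adipocyte samples, against 175, 473 and 551 FPKM in preadipocyte samples. The fall was 10.3-fold (-3.36 ± 0.32, adjusted p = 6.75e-07), and the gap between the fractions held in stress libraries alone (-3.55 ± 0.52) and in control libraries alone (-3.07 ± 0.31). Ccl24, the other eotaxin, did not pass (-0.63 ± 0.47, adjusted p = 0.261). Ccl26 passed on few reads (-2.87, adjusted p = 0.0358), and its call was lost in 11 alternative analyses, 8 of them fits that left out 1 library.

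Ccl3, Ccl4, Ccl5, Ccl6 and Ccl9 and the ligands of CXCR3 held no call. Ccl6, a CCR1 ligand of mice with no human counterpart, was listed at 128, 188 and 307 FPKM as lowest, median and highest in adipocyte samples, against 42.7, 110 and 384 FPKM in preadipocyte samples. The preadipocyte samples enclosed all adipocyte samples (0.35 ± 0.47, adjusted p = 0.545). Ccl9, a further CCR1 ligand, averaged 131 ± 68.3 FPKM in adipocytes and 90.1 ± 81.2 FPKM in preadipocytes (0.83 ± 0.55, adjusted p = 0.209). It passed as higher in 1 alternative, control libraries alone (1.61, adjusted p = 0.0487), and stood at 0.05 in stress libraries alone, where Ccl6 was at -0.09; the difference between treatments is tested below as an interaction. Ccl3 (-0.33), Ccl4 (-0.27) and Ccl5 (-1.57, adjusted p = 0.0591), which attract monocytes and T cells, did not pass. Ccl5 passed as lower in 7 of 26 alternative analyses (-1.94 to -1.63). Cxcl9, a CXCR3 ligand induced by interferon gamma, was at 29.7 ± 13.6 FPKM in adipocytes and 14.97 ± 14.8 FPKM in preadipocytes (1.07 ± 0.48, adjusted p = 0.0664), and Cxcl10, its neighbour on chromosome 5, at 39.6 ± 35.7 and 47.7 ± 24.3 FPKM in adipocytes and preadipocytes. Cxcl9 passed as higher in 5 of the 26 alternative analyses. These ligands are known products of macrophages. Of 12 macrophage markers 0 were called between the fractions, with log2 fold changes from -1.195 to 0.804. The part of macrophages in these levels was not tested.

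**Figure D2:**
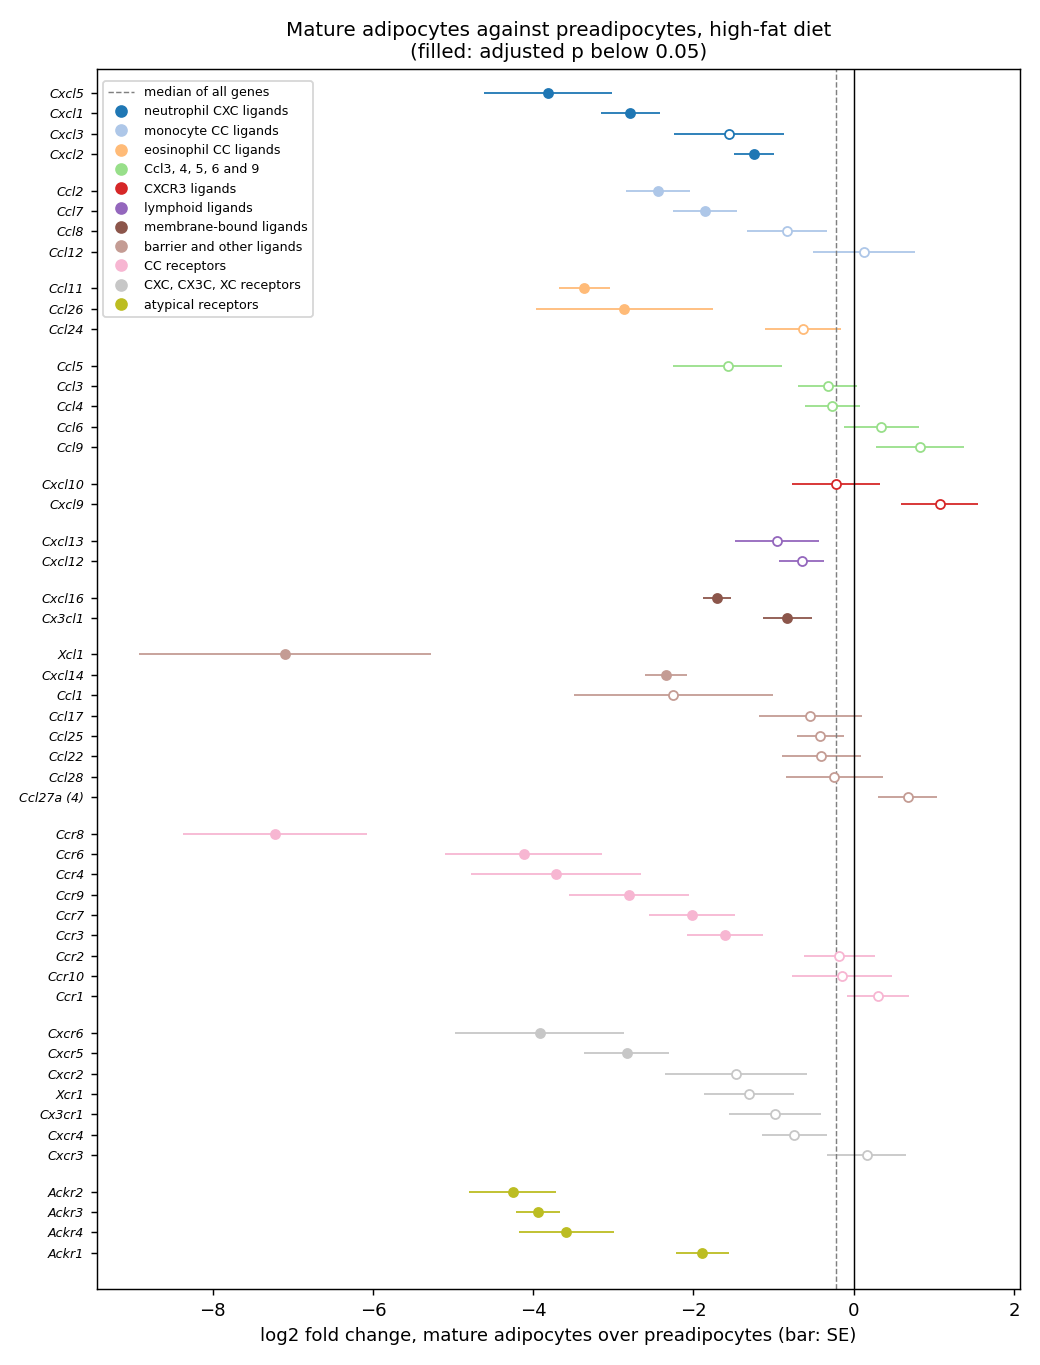
Log2 fold change of 50 of the 51 tested members, mature adipocytes over preadipocytes on the high-fat diet, with SE bars and members ordered by role from top to bottom; filled points passed at adjusted p below 0.05, the dashed line is the median of all genes (-0.22). All 23 filled points lie left of 0; those of Xcl1 and Ccr8 rest on 0 and 1 adipocyte counts, so their position depends on the prior count.

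Cxcl12, the homeostatic ligand of CXCR4 and ACKR3, did not pass (-0.65 ± 0.28, adjusted p = 0.0566). It ran from 15.1 through a median of 22.4 to 63.6 FPKM in adipocyte samples, against 34.7, 43.3 and 59.0 FPKM in preadipocyte samples. The value of 63.6 FPKM, from stress adipocyte library 3, was the only adipocyte value above 26.1 FPKM. Without that library Cxcl12 was lower in adipocytes (-1.06, adjusted p = 0.00038), and it passed in 11 of 26 alternative analyses, always as lower. Cxcl13, the B cell ligand of CXCR5, did not pass (-0.95 ± 0.52, adjusted p = 0.127). It was at -2.05 in control libraries alone (adjusted p = 0.0191) and at -0.03 in stress libraries alone (adjusted p = 0.975), and it passed as lower in 5 of 26 alternative analyses, among them the fit without stress adipocyte library 3 (-1.36, adjusted p = 0.0309).

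Both ligands made as membrane proteins were lower in adipocytes, as were 32.9% of all genes tested. Cxcl16, which binds CXCR6 and is also a scavenger receptor, had 3.97, 6.10 and 8.10 FPKM as lowest, median and highest value in adipocyte samples, against 14.3, 18.2 and 28.8 FPKM in preadipocyte samples. It was 3.26-fold lower with no overlap (-1.71 ± 0.18, adjusted p = 1.44e-06), the smallest SE among the called members. Cx3cl1, fractalkine, fell 1.77-fold (-0.83 ± 0.30, adjusted p = 0.0274) and lost its call in 4 alternative analyses. Cxcl14, a ligand of epithelia and adipose tissue, had 4.85, 6.20 and 11.2 FPKM in adipocyte samples, against 23.4, 36.4 and 59.1 FPKM in preadipocyte samples, again with no overlap (5.07-fold lower, -2.34 ± 0.26, adjusted p = 3.24e-06). Xcl1, a product of T and NK cells, had 0 counts in the 6 adipocyte libraries and 154 in the 8 high-fat preadipocyte libraries, so it was at least 4.86-fold lower against the floor of 3 counts per library (adjusted p = 0.00705).

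All 4 atypical receptors were lower in adipocytes, each with no overlap (32.9% of all genes tested were called lower, and 21.9% were lower with no overlap). Ackr3, which takes up CXCL12, ran from 6.86 through a median of 8.81 to 10.4 FPKM in adipocyte samples, against 82.5, 131 and 228 FPKM in preadipocyte samples. The lowest preadipocyte sample was thus far above the highest adipocyte sample, and the fall was 15.3-fold (-3.94 ± 0.28, adjusted p = 5.21e-08). Ackr2, a scavenger of inflammatory CC ligands, had 0.0547, 0.278 and 1.03 FPKM in adipocyte samples, against 4.23, 5.90 and 10.6 FPKM in preadipocyte samples. Its fall was 19.1-fold (-4.25 ± 0.54, adjusted p = 1.11e-05). Ackr4, a scavenger of CCL19, CCL21 and CCL25, fell by 3.59 on the log2 scale at a low level, 0.125 ± 0.0986 FPKM in adipocytes and 1.53 ± 0.852 FPKM in preadipocytes (adjusted p = 0.000117). Ackr1, known from venules and red cells for binding many ligands, fell 3.70-fold (adjusted p = 0.000184), at 2.74 ± 1.61 FPKM in adipocytes and 10.7 ± 1.48 FPKM in preadipocytes. All 4 kept their calls in all 26 alternative analyses. Of 10 endothelial markers, 8 were called higher in the adipocyte libraries and 1 was called lower. The part of endothelial and other cells in these receptor levels was not tested.

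Among conventional receptors, 6 of 10 CC receptors and 2 of 7 CXC, CX3C and XC receptors were lower in adipocytes, against 32.9% of all genes tested. Most were at low levels. Ccr4, Ccr6, Ccr8, Ccr9 and Cxcr6 passed the count filter only through the preadipocyte libraries, where they are high, and their calls are given as a description only. Of the receptors that passed it in adipocyte libraries alone, 2 of 6 CC receptors (Ccr3 and Ccr7) and 1 of 5 CXC, CX3C and XC receptors (Cxcr5) were lower, against 25.7% of all such genes. Ccr8, a receptor of regulatory and other T cells, had 1 count in the 6 adipocyte libraries and 458 in the 8 high-fat preadipocyte libraries, a preadipocyte over adipocyte ratio of 260 with an exact 95% counting interval of 46.4 to 10300 (adjusted p = 8.28e-05). Ccr7, the receptor for CCL19 and CCL21 on dendritic and naive lymphoid cells, averaged 1.67 ± 0.675 FPKM in adipocytes and 7.37 ± 6.12 FPKM in preadipocytes (4.06-fold lower, adjusted p = 0.00471). Cxcr5, the B cell receptor for CXCL13, was 7.12-fold lower (adjusted p = 0.000336). The lymphocyte receptors Ccr6 (-4.12, adjusted p = 0.00225), Cxcr6 (-3.92, adjusted p = 0.00511), Ccr4 (-3.71, adjusted p = 0.0074) and Ccr9 (-2.81, adjusted p = 0.00474) were at most 0.311 FPKM in any adipocyte sample. Ccr3, the eosinophil receptor, was 3.05-fold lower (adjusted p = 0.0091). T and NK and B cell markers were called lower in adipocytes as well (8 of 10 and 7 of 7). Of these markers, 2 of 10 and 6 of 7 passed the count filter in adipocyte libraries alone. The filter thus favours the T and NK calls, which are a description only. Of 6 tested markers of eosinophils and mast cells together, 3 were called lower and 3 were not called, so they do not single out eosinophils. The part of these cells in the receptor levels was not tested.

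Receptors carried by monocytes and macrophages did not pass: Ccr1 (0.31 ± 0.38), Ccr2 (-0.18 ± 0.44) and Cx3cr1 (-0.98 ± 0.57). Cxcr4, the CXCL12 receptor and the highest conventional receptor, averaged 23.99 ± 11.9 FPKM in adipocytes and 42.0 ± 22.3 FPKM in preadipocytes (-0.74 ± 0.41, adjusted p = 0.13). Cxcr2, the receptor for CXCL1 and CXCL2, was at most 0.439 FPKM in any library, and Cxcr3 did not pass (0.17 ± 0.49). Neighbouring genes did not all share their calls. In the chromosome 11 cluster at 82035571 to 82305690, Ccl2, Ccl7 and Ccl11 were lower and Ccl12, Ccl8 and Ccl1 did not pass, and in the cluster at 83525778 to 83664683 (Ccl5, Ccl9, Ccl6, Ccl3, Ccl4) 0 of 5 passed.

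Of 51 other genes of chemokine induction, cleavage, relatives and signalling, 50 were tested and 10 were lower and 6 higher in adipocytes, smaller shares than the 32.9% and 26.9% of all genes. Among those with the largest difference were Dpp4, a protease that trims chemokines and also a progenitor marker here (30.6-fold lower, adjusted p = 1.19e-08), Mmp2, a matrix protease (22.5-fold lower, adjusted p = 1.26e-07), and Il6, a cytokine induced with them (12.5-fold lower, adjusted p = 1.1e-05). Nfkb1, an NF-kappaB subunit, was 6.67-fold lower at 6.71 ± 2.30 FPKM in adipocytes and 46.3 ± 19.5 FPKM in preadipocytes (adjusted p = 4.85e-06). Rela, another subunit, did not pass, at 41.9 ± 11.3 FPKM in adipocytes and 48.2 ± 5.64 FPKM in preadipocytes (-0.15 ± 0.16, adjusted p = 0.433). Il17ra was 5.47-fold lower (adjusted p = 2.3e-07) and Adam17, a sheddase of fractalkine, 2.27-fold lower (adjusted p = 0.00328). Among the 6 higher genes were Ptk2b (0.87), Rarres2 (0.84), which encodes the adipokine chemerin, Gnai2 (0.68), Arrb1 (0.53) and Rac1 (0.38).

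Levels within a fraction varied widely. Over the 8 high-fat preadipocyte libraries, the highest value divided by the lowest ran from 1.59 (Ackr1) to 29.6 (Ccr7), with a median of 5.5, in the 38 members with at least 10 counts in all 8. Cxcl12 (1.71), Cxcl16 (2.01) and Cxcl2 (2.05) were even, while Ccl6 (8.99) and Ccl9 (8.29) were not. Stress preadipocyte libraries 3 and 4 had the highest macrophage marker sums, 3419 and 4208 FPKM, and also the highest Ccl6 of that fraction, 376 and 384 FPKM, and Ccl9, 207 and 205 FPKM. Stress preadipocyte library 2 had the lowest macrophage sum, 710.7 FPKM, with 42.7 FPKM of Ccl6 and 25.4 FPKM of Ccl9. Stress preadipocyte library 1 had the highest T and NK sum, 34.7 FPKM, and the highest Ccl5 of all libraries, 42.5 FPKM.

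**Figure D3:**
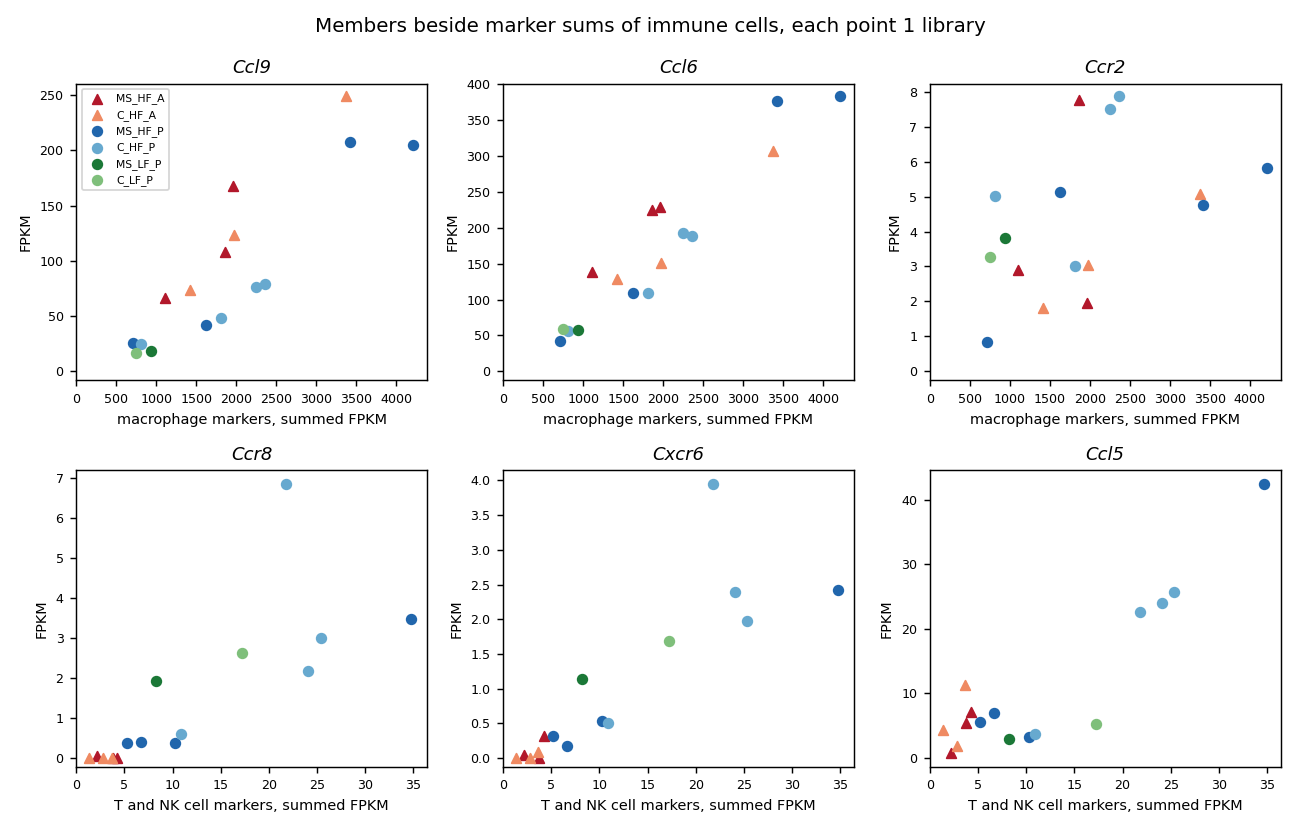
FPKM of 6 members (vertical) against the summed FPKM of 12 macrophage markers (upper row) or 10 T and NK cell markers (lower row); each point is 1 library, triangles are adipocytes and circles preadipocytes, both axes linear. Ccl6 and Ccl9 are high where the macrophage sum is high, Ccr2 lies between 0.839 and 7.88 FPKM, and Ccr8 and Cxcr6 are near 0 in the adipocyte libraries, whose T and NK sums are 1.37 to 4.24 FPKM.

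The comparison of early life treatments asked whether stress altered these genes within each fraction. On the high-fat diet, 0 of 40 members tested passed in mature adipocytes and 0 of 51 in preadipocytes, and 0.0% of the 14485 and of the 17129 genes tested were called. At an unadjusted p below 0.05 there was 1 member in each fraction (2.5% and 1.96% of the members tested, against 2.88% and 2.9% of all genes). DESeq2 called 9 genes in adipocytes and 4 in preadipocytes, of which 0 were members, and limma on log2(FPKM + 1) called 0 genes in either.

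In mature adipocytes the member with the smallest p was Cxcl16, at 4.29, 3.97 and 4.96 FPKM in the stress libraries, against 7.23, 7.91 and 8.10 FPKM in the control libraries. The groups did not overlap, as for 1 of 40 members lower in stress (3.48% of all genes) and 0 of 40 higher (3.22%), and the difference did not pass (-0.77 ± 0.33, adjusted p = 1.0). Cxcl13 had 1.33, 12.6 and 16.0 FPKM in stress libraries, against 3.62, 4.10 and 3.17 FPKM in control libraries, so that 1 stress library lay below and the others above all controls. Ccl7 (83.8 ± 49.9 FPKM in stress and 178 ± 82.6 in control adipocytes), Cxcl2 (88.1 ± 16.6 and 141 ± 37.2 in the same order), Ccl2 (78.7 ± 37.5 and 137 ± 57.5) and Cxcl12 (35.0 ± 25.3 and 19.9 ± 5.01) had overlapping groups and did not pass (SD, n = 3 each).

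In preadipocytes Ccl26 had the smallest p, with 1.39, 0, 0.179 and 0 FPKM in the stress libraries, against 3.51, 2.55, 1.60 and 2.34 FPKM in the control libraries (-2.58 ± 1.03, adjusted p = 0.973). The groups did not overlap, on few reads, as for 1 of 51 members lower in stress (1.62% of all genes) and 0 of 51 higher (2.18%). Cxcl14 had 39.5, 50.2, 25.8 and 59.1 FPKM in stress libraries, against 22.7, 27.1, 24.04 and 36.4 FPKM in control libraries. Stress values were mostly the higher ones, with overlap (0.59 ± 0.29, adjusted p = 0.973). Cxcl12 averaged 49.98 ± 7.75 FPKM in stress and 40.1 ± 4.76 FPKM in control preadipocytes (0.31 ± 0.15, adjusted p = 0.973; SD, n = 4 and n = 3). Ccl17, a CCR4 ligand (-1.78), Xcr1, the receptor for XCL1 (-1.40), and Cx3cl1 (0.51) were next, all at an adjusted p of 0.973. The abundant ligands were close between groups: Cxcl1 averaged 1042 ± 449 FPKM in stress and 973 ± 380 FPKM in control preadipocytes, and its difference of 0.08 ± 0.40 leaves room for a change in either direction.

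The difference between the stress effects of the fractions was tested as an interaction, and 0 of 51 members and 0.0% of 17948 genes passed. Unadjusted p below 0.05 was reached by 2 members (3.92%, against 4.86% of all genes), Cxcl2 (-0.93 ± 0.42) and Cxcl13 (1.96 ± 0.90), both at an adjusted p of 0.934. DESeq2 called 3 genes and 0 members, and limma called 0. Cxcr2, Cxcl14, Cxcr6 and Ccl7 had the next smallest p.

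The comparison of diets asked which members differed between high-fat and low-fat preadipocytes, with 7 samples against 2 libraries, 1 of each early life treatment. No member of 52 tested passed, and 0.0% of 18468 genes were called. At an unadjusted p below 0.05 there were 7 members, 13.5%, against 12.8% of all genes. DESeq2 called 416 genes and 1 member, Cxcl2, and limma on log2(FPKM + 1) called 0.

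Cxcl2 had 179, 300 and 363 FPKM as lowest, median and highest value in high-fat samples, against 94.1 FPKM in the stress and 99.1 FPKM in the control low-fat library. The diets did not overlap, and Cxcl2 was 2.91-fold higher on the high-fat diet without passing (1.54 ± 0.30, adjusted p = 0.32); with DESeq2 it passed (1.55, adjusted p = 6.05e-05). Over its alternative analyses the log2 fold change ran from 1.35 to 1.73. Cx3cl1 was also higher with no overlap, at 3.81 ± 1.13 FPKM on the high-fat and 2.00 ± 0.308 FPKM on the low-fat diet (0.91 ± 0.30, adjusted p = 0.335; SD, n = 7 and n = 2). Cxcr4 stood at 12.3, 42.1 and 83.3 FPKM as lowest, median and highest value in high-fat samples, against 12.3 and 12.6 FPKM in the low-fat libraries. A single high-fat sample, stress library 2, lay as low as the low-fat libraries (1.78 ± 0.66, adjusted p = 0.344). Ccr3 was 3.17-fold higher (adjusted p = 0.336), at no more than 1.41 FPKM in any of these libraries.

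Ackr1 and Ackr2 went the other way. Ackr1 had 8.32, 10.8 and 13.3 FPKM as lowest, median and highest value in high-fat samples, against 18.5 and 14.001 FPKM in the stress and control low-fat libraries (-0.60 ± 0.17, adjusted p = 0.32). Ackr2 had 4.23, 5.90 and 10.6 FPKM in high-fat samples, against 14.2 and 15.6 FPKM in the low-fat libraries (-1.11 ± 0.32, adjusted p = 0.32). Neither overlapped between diets and neither passed. For 3 of 52 members the samples did not overlap and were higher on the high-fat diet (7.37% of all genes), and for 2 they were lower (9.41%).

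**Figure D4:**
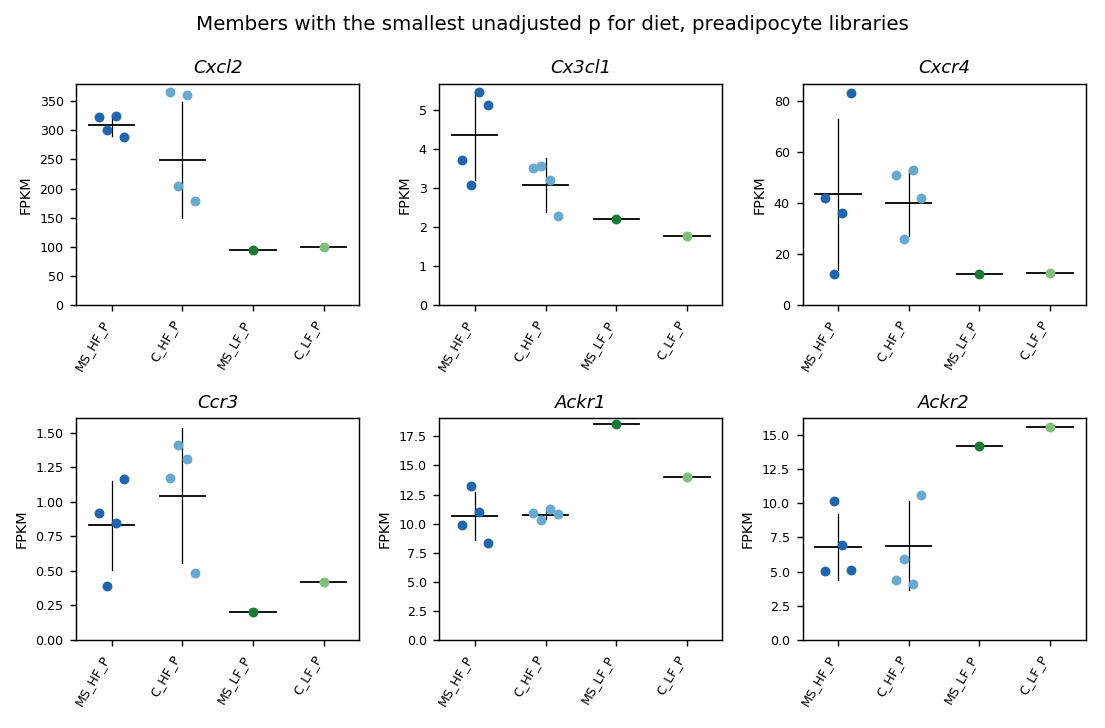
FPKM (linear axis) of the 6 members with the smallest unadjusted p for diet in the preadipocyte libraries; points are libraries, horizontal lines means and vertical lines SD, with the low-fat groups holding 1 library each. Cxcl2 lies at 94.1 and 99.1 FPKM in the low-fat libraries, below all high-fat libraries, and Ackr1 and Ackr2 lie above them; none passed adjustment with edgeR's quasi-likelihood test.

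Ccl3, Ccl4, Ccl5, Ccl6 and Ccl9 all had a positive log2 fold change for diet, with a median of 1.51 and 0 called. Ccl9 averaged 90.1 ± 81.2 FPKM on the high-fat and 17.4 ± 1.64 FPKM on the low-fat diet (2.17 ± 0.95, adjusted p = 0.39; SD, n = 7 and n = 2, by edgeR's quasi-likelihood test). Macrophage markers had a positive value for 11 of 12, with a median of 1.38 and 0 called, and summed to 710.7 to 4208 FPKM on the high-fat and 751.5 and 939.1 FPKM on the low-fat diet; their part in the ligand levels was not tested. Over all genes the median for diet was 0.02, and over the members tested 0.37. None of the other 51 chemokine pathway genes passed for diet, nor did any of the 50 tested for stress in either fraction.

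The low-fat libraries allow no test between stress and control, since each group has 1 library. Among members with at least 20 counts in either library, 6 of 44 (13.6%) differed at least 2-fold in CPM, against 7.85% of 15459 genes. Cxcl5 was at 0.954 FPKM in the stress and 7.17 FPKM in the control library (7.48-fold lower in stress by CPM, 37 and 323 counts). Cxcl10 was at 50.7 FPKM in the stress and 162 FPKM in the control library, the highest Cxcl10 value of the series (3.35-fold lower). Ccl11 (323 FPKM in stress, 650 in control, 2.12-fold lower) and Cxcl1 (449 in stress, 860 in control, 2.02-fold lower) also stood lower, while Ccr4 (29 and 10 counts, 2.87-fold) and Ccr10 (51 and 24 counts, 2.26-fold) stood higher in stress. On the high-fat diet the same contrast gave 0.10 ± 0.36 for Ccl11 and 0.08 ± 0.40 for Cxcl1 on the log2 scale, with different libraries on each diet.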

How the data were processed

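The authors deposited raw read counts and FPKM values per gene for 16 libraries. STAR 2.6.1d, DESeq2 1.20.0, edgeR 3.24.3 and the builds mm10 and GRCm38 are named per the submitters' processing notes. How reads were assigned to genes, with or without strand and by which annotation, is not given in the sources used here, so reads of overlapping genes may be shared. Although the series title speaks of single cells, each library is 1 column of counts, treated as bulk. The deposited FPKM are counts divided by length and total and multiplied by a factor that differs between libraries, so they are scaled between libraries; adipocyte libraries detected fewer genes, which affects low members.

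Counts were tested with R 4.3.3 and edgeR 4.0.16 (filterByExpr, TMM, robust quasi-likelihood fit, F test, Benjamini-Hochberg adjustment over all genes at 0.05). The fraction fit and the diet fit carried early life treatment as a term, and stress was fitted within each fraction and as an interaction. The SE is the log2 fold change over the square root of F. Control high-fat preadipocyte libraries 1 and 3 were summed in the fits and averaged in means. DESeq2 1.42.0 and limma 3.58.1 (pseudocount 1 or 0.1) were alternatives. Scripts were tested on simulated data. Members and lists were chosen with earlier results of these data known. Values are given for called members, those with the smallest p, a fixed list of ligand and receptor pairs, and the 10 highest of each fraction; further members are given to complete their role group. Individual values of a few genes are not reported here; the counts include them. Intervals and floors cover counting error only.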

Additional observations from a re-analysis of the deposited data

Results flagged for a closer look

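Of 40 members looked at in the 4 stress high-fat preadipocyte libraries, 6 had a sample set far apart from the other 3 relative to the range. The cut-off marks about 1 of 20 groups of independent values by chance. These members share their libraries and are not independent, and the share over all genes was not computed, so the count is a description only. All 6 were highest in library 1: Ccl5 at 42.45 FPKM, Ccr8 at 3.472, Cxcr6 at 2.427, Ccl26 at 1.385, Cx3cr1 at 1.146 and Ccr4 at 0.5613 FPKM. The same library had the highest T and NK marker sum, 34.7 FPKM, against 5.23 to 10.2 FPKM in the other 3; the part of these cells in the 6 values was not tested.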

How the results depend on the processing

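Of the 23 members lower in adipocytes, 16 kept their call in each of up to 26 alternatives that tested them and none of the 23 changed direction. Stress libraries alone, with fewer samples, gave 15 calls among 44 members tested and 8201 among 16489 genes. Leaving out 1 library gave 22 to 27 calls among members, and 9943 to 11297 among 17605 to 18800 genes. Ccl26 was lost most often. Cx3cl1 was lost in control libraries alone (-0.63) and without C_HF_P replicate 2 (-0.81), MS_HF_A replicate 1 (-0.73) or MS_HF_P replicate 3 (-0.75). Cxcl2 and Ccr3 were lost in control libraries alone, and Ccr7, Ccr9 and Cxcr6 in stress libraries alone. Over all 51 members tested, 7 that had not passed, and 0 that had, changed direction in at least 1 alternative. They were Ccl12, Ccl3, Ccl6 (-0.09 in stress libraries alone), Ccr10 (0.09 in control libraries alone), Ccr2 (0.152 in stress libraries alone, 0.146 without control adipocyte libraries 1 and 3, 0.02 without control preadipocyte libraries 1 and 3), Cxcl10 (0.038 without MS_HF_A replicate 1, 0.005 without MS_HF_P replicate 1, and -0.96 to 0.038 over the fits with 1 library left out) and Cxcr3 (-0.181 in control libraries alone, -0.015 without MS_HF_A replicate 3, -0.039 without MS_HF_P replicate 2, and -0.039 to 0.422 over those fits). The cause was not tested. Of the members that had not passed, 11 passed in at least 1 alternative, 8 as lower and 3 as higher (Ccl9, Cxcl9 and Ccl27a, the last at 0.84 without C_HF_A replicate 2). Fits with 1 library left out called Ccl5 lower without C_HF_A replicate 1 (-1.92), C_HF_P replicate 4 (-1.78) or MS_HF_P replicate 3 (-1.71) or 4 (-1.74), Cxcl3 without C_HF_P replicate 4 (-1.74), MS_HF_A replicate 2 (-2.18) or MS_HF_P replicate 4 (-1.71), Xcr1 without C_HF_A replicate 3 (-1.50), C_HF_P replicate 4 (-1.49), MS_HF_A replicate 1 (-1.53) or MS_HF_P replicate 4 (-1.44), Cxcl12 without MS_HF_A replicate 3 (-1.06) or MS_HF_P replicate 4 (-0.72), Cxcl13 (-1.36) and Cxcr2 (-2.70) without MS_HF_A replicate 3, and Ccl1 without C_HF_A replicate 3 (-5.72, few reads). Cxcl9 was called higher without MS_HF_A replicate 1 (1.24) or MS_HF_P replicate 1 (1.75), and Cxcr4 lower by DESeq2 alone (-0.86). Calls for stress and the interaction remained at 0 to 0 with each library left out, as did those for diet, where DESeq2 gave 1 (Cxcl2).

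Same-numbered libraries of stress and control correlated in their deviations at 0.174, 0.586, 0.043 and 0.174 in preadipocytes and at -0.033, -0.502 and -0.053 in adipocytes. Different-numbered preadipocyte libraries ran from -0.498 to 0.273. Between the fractions, same-numbered libraries stood at 0.064, -0.124 and -0.006 in control and at -0.331, 0.273 and -0.042 in stress. Replicate numbers thus showed no steady pairing in adipocytes or between fractions, and for preadipocytes the values do not settle it. The fit with the replicate block also kept control high-fat preadipocyte libraries 1 and 3 as 2 samples, except in adipocytes, where they do not enter. It called 28 of 51 members and 10063 of 18194 genes for fraction. Keeping that pair as 2 samples without the block called 27 of 51 members and 11372 of 18194 genes. The fit with the block called 0 members for stress in either fraction and 0 for the interaction. No paired analysis was possible for diet because the low-fat groups hold only number 1. In adipocyte libraries the floor of 3 counts was 0.136 to 0.212 CPM, which limits what can be said of low receptors there.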
